A study of Rattus norvegicus with 43 samples.

Results

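Expression of 10 genes of cell cycle entry and pituitary tumor growth was examined in anterior pituitaries from 43 male rats: Pttg1 (securin), the D cyclins Ccnd1, Ccnd2 and Ccnd3, the CDK inhibitors Cdkn1a, Cdkn1b and Cdkn2c, the pocket protein gene Rb1, the menin gene Men1 and Gadd45g. They were taken by name from the 14217 genes that the array annotation pairs with at least 1 probe set naming no other gene, and they had 16 such probe sets of 31099 on the array. All animals were F2 offspring of a cross between female Copenhagen (COP) and male ACI rats, and all were treated alike. The synthetic estrogen diethylstilbestrol (DES, 5 mg) was implanted for 12 weeks, between 9 and 21 weeks of age, and each animal received bromodeoxyuridine (50 mg/kg) 4 hours before sacrifice. There was 1 array per animal and no untreated animal, so that no response to DES can be read from these values. The animals had been selected for the highest and lowest pituitary weights of their population, but the labels do not give the weight of any animal, and weight classes were not compared. Animals are identified below by the number in their label.

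Estrogens drive the division of lactotrophs, the prolactin cells of the anterior pituitary, and prolonged treatment produces lactotroph hyperplasia and prolactin-secreting tumors in susceptible rat strains. D cyclins bind and activate the kinases Cdk4 and Cdk6, which phosphorylate the retinoblastoma protein (Rb1) and thereby release the E2F transcription factors that switch on DNA replication genes. CDK inhibitors oppose this step, and menin, lost in multiple endocrine neoplasia, keeps Cdkn1b and Cdkn2c expressed in endocrine cells of mice. Securin acts later: it holds the protease separase (Espl1) inactive until anaphase, and it was first isolated from a rat pituitary tumor line as pituitary tumor-transforming gene.

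Pttg1 was the member that passed the threshold on a score of transcripts of dividing cells (below). Its promoter is therefore shown with those of mitotic and of DNA replication genes. The windows, from 250 bases before to 50 bases after the annotated transcription start, are RefSeq sequences of assembly GRCr8, and 8 of the 10 genes had one (not Ccnd1 or Ccnd2). Searched on both strands were CHR (TTTGAA), an element of genes expressed in G2 and mitosis, the CCAAT box (CCAAT) and an E2F core (TT, then 2 bases that are each C or G, then CGC). The stretch of the Pttg1 promoter at chr10:28406340-28406420 (minus strand, bases -94 to -14 from the start) holds CHR at -29 to -24, read on the opposite strand as TTCAAA, and a CCAAT box on either strand, at -51 to -47 and at -92 to -88. Capitals mark CHR and CCAAT boxes on either strand, and in Mki67 a CHR and a CCAAT box share 1 base. Mki67 (chr1:199952677-199952760, minus strand), which encodes Ki-67, Prc1 (chr1:143659398-143659478, plus strand), a protein of the central spindle, and Cdk1 (chr20:19265212-19265292, plus strand), the mitotic kinase, are the 3 mitotic genes with the strongest relation to Pttg1 among those that hold both motifs with CHR before the start.
Pttg1: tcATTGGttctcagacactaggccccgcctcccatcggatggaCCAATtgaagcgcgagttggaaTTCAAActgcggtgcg
Mki67: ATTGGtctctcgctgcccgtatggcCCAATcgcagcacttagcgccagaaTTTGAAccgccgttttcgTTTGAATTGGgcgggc
Prc1: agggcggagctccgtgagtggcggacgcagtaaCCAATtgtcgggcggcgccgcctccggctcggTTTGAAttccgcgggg
Cdk1: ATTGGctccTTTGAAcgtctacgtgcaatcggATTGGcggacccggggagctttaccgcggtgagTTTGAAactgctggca

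For contrast, the same windows of the helicase subunit genes Mcm6 (chr13:42404408-42404490, minus strand) and Mcm5 (chr19:13488741-13488812, plus strand) are shown with E2F cores in capitals, 2 of them overlapping at each marked site of Mcm6. Both were chosen among DNA replication genes called with Pttg1 (below) because they hold an E2F core before the start. CCAAT boxes are left unmarked here, at -86 to -82 in Mcm6 and -54 to -50 in Mcm5. Outside the stretches shown, the windows of Mki67 (-70 to -64) and Cdk1 (-180 to -174 and -132 to -126) also hold E2F cores.
Mcm6: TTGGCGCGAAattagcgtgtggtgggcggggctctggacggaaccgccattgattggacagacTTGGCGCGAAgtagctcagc
Mcm5: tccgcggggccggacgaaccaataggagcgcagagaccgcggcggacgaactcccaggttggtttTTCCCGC

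CHR and a CCAAT box stood together in 14 of 22 windows of mitotic genes (63.6%) and in 0 of 18 windows of DNA replication genes, against 4.52% of the 7918 windows of genes passing the intensity filter and 7.41% of all 33469 windows. An E2F core stood in 4 of 22 windows of mitotic genes (18.2%) and in 14 of 18 windows of DNA replication genes (77.8%), against 18.5% of the windows of genes passing the filter and 9.52% of all windows. CHR alone stood in 10.7% of the windows of genes passing the filter and in 18.3% of all windows. For the CCAAT box alone these shares were 38.3% and 37.5%. Pttg1 was the 1 member of 8 with CHR, and its window held no E2F core. E2F cores stood in the windows of Cdkn1b, Cdkn2c and Rb1, in Rb1 at -113 to -107 and at 4 to 10. Motif matches are descriptions of these windows, not tests of binding.

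Levels are given as log2(intensity + 16), in log2 units, with the intensities scaled as deposited. Brightness is not calibrated between probe sets, so that genes are not ranked by level. All 10 genes passed the filter, a mean above 7.16, the median of the probe sets that were not controls, as did 14 of their 16 probe sets. The spread of a gene was placed among the 200 probe sets nearest in mean level.

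The array of animal 43 stood apart. Its mean correlation with the other arrays was 0.927, against 0.967 to 0.976 for the others, and its difference between the 3' and 5' probe sets of actin, a measure of RNA integrity, was 1.97, against 1.26 to 1.67. Animal 43 was the lowest of all animals for Ccnd1, Ccnd2, Ccnd3, Cdkn1b and Men1, and the second lowest for Pttg1. Results that rest on this array are given with and without it.

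Securin had a level of 8.76 ± 0.26 (SD, n = 43), with 7.97 in the lowest animal, a median of 8.76 and 9.36 in the highest, a 2.61-fold range. The lowest value was that of animal 38, followed by 8.15 in animal 43, and the highest that of animal 14. Its SD lay at the 65th percentile of probe sets of like level. Espl1, the protease that securin holds, did not pass the filter (6.68 ± 0.36, n = 43).

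The D cyclins were among the genes with wide spread for their level. Ccnd1 had 10.60 ± 0.33, with 9.66 in the lowest animal (43), a median of 10.62 and 11.38 in the highest, animal 10 (SD, n = 43; 94th percentile of spread). Its other probe sets passed the filter at 10.09 ± 0.25 and 9.14 ± 0.30 (n = 43) and followed the first with rank correlations of 0.78 and 0.70. Ccnd2 had 12.54 ± 0.27, with 11.67 in the lowest animal (43), a median of 12.53 and 13.20 in the highest, animal 4 (92nd percentile of spread, n = 43). Ccnd3 had 11.78 ± 0.25, with 10.61 in the lowest animal (43), a median of 11.82 and 12.29 in the highest, animal 13 (n = 43; percentile 83.5). For Ccnd3 the next lowest value was 11.48, so that animal 43 stood apart, and without it the SD was 0.18.

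The CDK inhibitors divided by spread. Cdkn1a, a p53 target of the CIP/KIP family, had 9.09 ± 0.28, with 8.44 in the lowest animal, a median of 9.07 and 9.76 in the highest (n = 43; percentile 81.5). Cdkn1b, the CIP/KIP inhibitor whose loss enlarges the mouse pituitary, had 12.30 ± 0.14, with 11.72 in the lowest animal (43), a median of 12.31 and 12.61 in the highest (n = 43; 35th percentile). Cdkn2c, of the INK4 family that binds Cdk4 and Cdk6, had 10.34 ± 0.13, with 10.02 in the lowest animal, a median of 10.34 and 10.56 in the highest (n = 43; 10th percentile). The highest animal for Cdkn2c, animal 38, was the lowest for Pttg1. The second probe sets of Cdkn1a and Cdkn2c did not pass the filter and followed the first with rank correlations of 0.40 and -0.08, and that of Cdkn1b, which passed at 7.87 ± 0.36, with 0.37. For these 3 genes the values below are those of 1 probe set, which its partner followed weakly for Cdkn1a and Cdkn1b and not for Cdkn2c.

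Rb1, the target of the D cyclin kinases, had 7.82 ± 0.27, with 7.19 in the lowest animal, a median of 7.82 and 8.57 in the highest (n = 43; 30th percentile). Men1 had 9.91 ± 0.22, with 8.95 in the lowest animal (43), a median of 9.93 and 10.28 in the highest (n = 43; percentile 63.5), and its second probe set followed it with a rank correlation of 0.53. The Men1 level fell with the actin ratio over the 43 arrays (r = -0.75), and r was -0.54 without animal 43. Ccnd3 (r = -0.61), Ccnd1 (-0.46) and Ccnd2 (-0.40) fell with this ratio too, and without animal 43 r was -0.25, -0.25 and -0.10. Cdkn1b fell with the like ratio of GAPDH (r = -0.61, and -0.35 without animal 43). Gadd45g, a stress-response gene of the growth arrest family that is silenced in many human pituitary adenomas, had 7.70 ± 0.28, with 7.00 in the lowest animal, a median of 7.72 and 8.17 in the highest (n = 43; percentile 33.5).

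**Figure D1:**
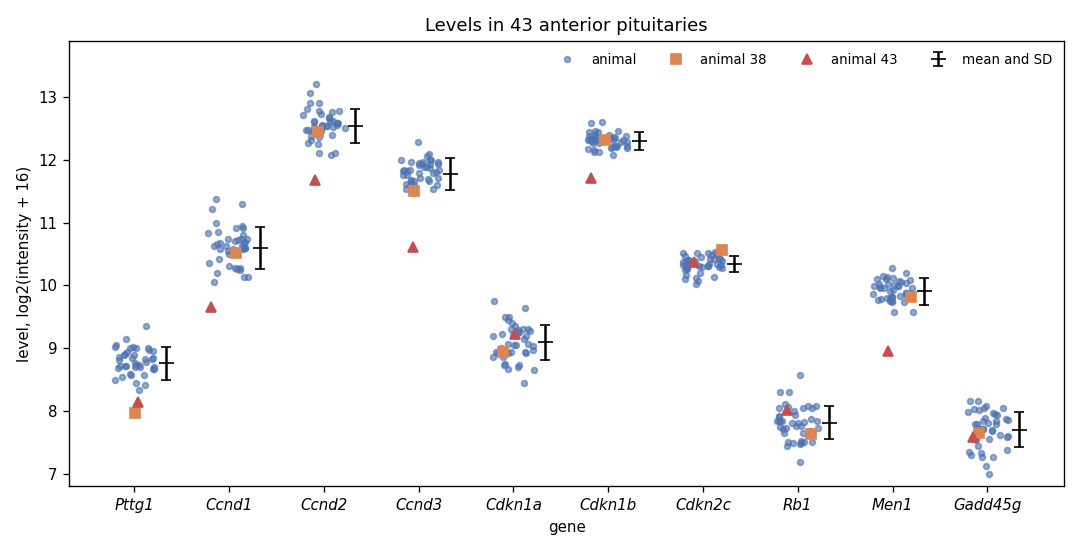
Level of each gene, log2(intensity + 16) (y axis), in each of 43 animals (points), by gene (x axis), and to the right of each column the mean and the SD. Animal 43 (triangle) is the lowest point for Ccnd1, Ccnd2, Ccnd3, Cdkn1b and Men1, and animal 38 (square) is the lowest for Pttg1 and the highest for Cdkn2c.

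To ask which members varied with the transcripts of dividing cells, each was regressed on a proliferation score, the mean of the centred log2 levels of 27 mitotic and 19 DNA replication genes, none of them a member. The score had an SD of 0.16 and ran between -0.70, in animal 38, and 0.30, in animal 11. Animal 38 lay far below the next animal, at -0.32.

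Securin was the 1 member of 10 that passed the threshold on the score (limma, Benjamini-Hochberg adjustment over 15468 probe sets). Of all probe sets tested, 5.76% were called, 2.88% with a positive and 2.88% with a negative slope, which is 891 probe sets, against 142 without animal 38. The slope of Pttg1 was 1.28 ± 0.16 (SE) log2 units per unit of score (adjusted p = 3.74e-07), and its moderated t was the 7th highest of all probe sets. Pearson's r was 0.80 and Spearman's rho 0.79 (n = 43, permutation p = 1e-05 each, two-sided, the smallest that 100000 permutations can give). Leaving out the 2 animals with the most extreme scores, measured from the median, gave r = 0.73, and leaving out animals 38 and 43 gave 0.73. Against the mitotic genes of the score alone r was 0.78, and against its DNA replication genes alone it was 0.74. In tissue RNA, more dividing cells and more Pttg1 transcript per dividing cell cannot be told apart.

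The animal numbers were also examined as a possible order among the arrays. The design had 22 animals of highest and 21 of lowest pituitary weight, and the ranges of numbers used below, 1 to 22 and 23 to 43, have the same sizes, but no label ties an animal number to a weight or to the processing. Weight, processing and animal number therefore cannot be told apart here. Within animals 1 to 22 r of Pttg1 with the score was 0.71 (slope adjusted p = 0.308, n = 22, limma), and within animals 23 to 42 it was 0.86 (adjusted p = 0.00282, n = 20). Over 20 alternatives on the same score scale the slope lay between 1.20 and 1.42.

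The D cyclins had positive slopes that did not pass the threshold: 0.60 ± 0.22 for Ccnd3 (SE, adjusted p = 0.087, limma), 0.58 ± 0.29 for Ccnd1 (adjusted p = 0.244) and 0.43 ± 0.24 for Ccnd2 (adjusted p = 0.304). Ccnd3 passed under 2 alternatives, with array medians subtracted (slope 0.67, adjusted p = 0.0338) and with score genes below the filter included (0.64, adjusted p = 0.0463). Among the inhibitors the slope was -0.28 ± 0.13 for Cdkn2c (SE, adjusted p = 0.187), -0.34 ± 0.26 for Cdkn1a (0.48) and 0.01 ± 0.14 for Cdkn1b (0.983). At an unadjusted p Ccnd3 had 0.00815 and Cdkn2c 0.0337 (limma). For Cdkn1b the 95% interval of the slope ran from -0.27 to 0.29, below the interval of Pttg1, 0.96 to 1.61. The intervals of Ccnd3 (0.16 to 1.04) and Ccnd1 (-0.01 to 1.17) overlapped that of Pttg1, and that of Ccnd2 (-0.06 to 0.91) did not. For Cdkn2c it ran from -0.54 to -0.02. Rb1 (-0.16 ± 0.26), Men1 (0.25 ± 0.20) and Gadd45g (0.00093 ± 0.28) likewise did not pass.

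**Figure D2:**
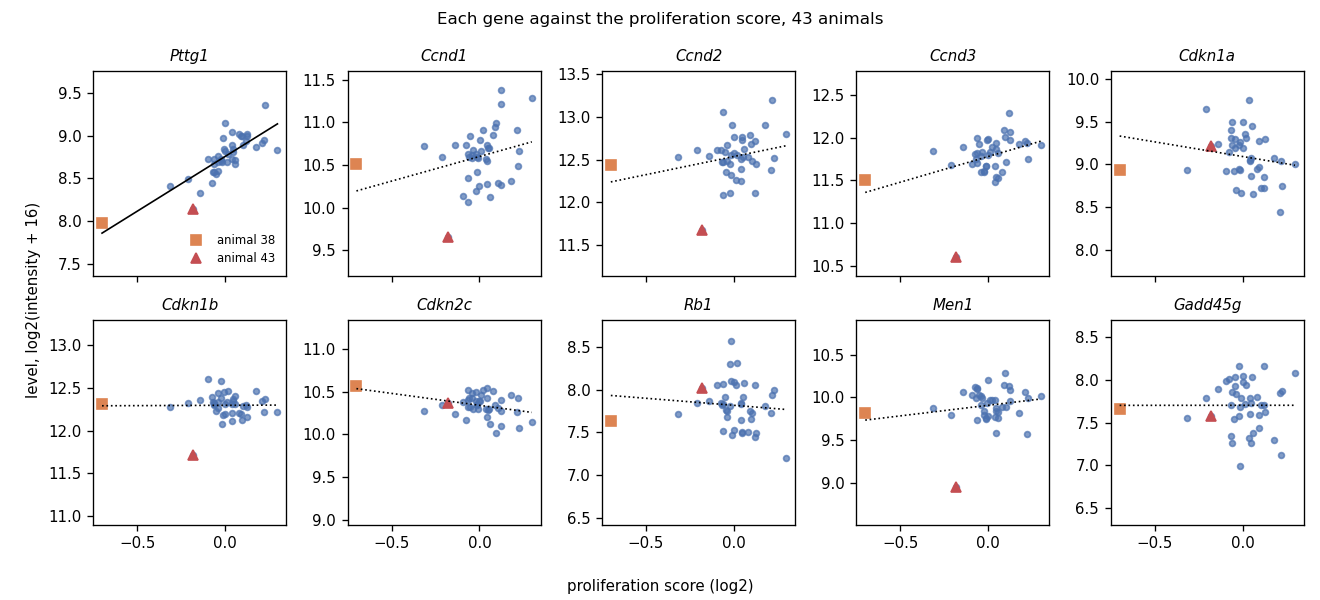
Level of each gene, log2(intensity + 16) (y axis, the same length of 2.4 units in every panel), against the proliferation score (x axis) in 43 animals (points), with the fitted line (solid where called, dotted elsewhere). Pttg1 rises along the whole range of the score with r = 0.80, while animal 43 (triangle) lies below the other animals for Ccnd1, Ccnd2, Ccnd3, Cdkn1b and Men1.

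With Pttg1 itself as the predictor, 6.19% of 15520 probe sets were called, 3.38% positive and 2.8% negative. All 27 mitotic genes correlated positively with Pttg1, with r between 0.12 and 0.79 and a median of 0.55, and 19 of them were called, all positive. Those with the largest t were Racgap1, a regulator of the central spindle (slope 1.01 ± 0.13 SE, adjusted p = 3.37e-06, limma), Mki67 (1.07 ± 0.15), Ube2c (0.86 ± 0.12), which loads ubiquitin for the anaphase-promoting complex that destroys securin, Prc1 (0.92 ± 0.14) and Cenpf, a kinetochore protein (1.04 ± 0.16). Among the 19 DNA replication genes the median r was 0.24, and 3 were called, all positive: Mcm5, Mcm6 and the ligase Lig1. Without animal 38, and likewise without animal 43, 0 were called by limma (7 and 8 at an unadjusted p under 0.05). The count of mitotic genes rested on few animals: it was 9 without animal 38, 17 without animal 43 and 5 without both, and 0 with ranks (22 at an unadjusted p under 0.05). Within animals 1 to 22 it was 0 (13 unadjusted) and within animals 23 to 42 it was 9. The sign did not: all 27 correlations were positive without animal 43, within animals 1 to 22 (median r = 0.38) and within animals 23 to 42 (median r = 0.66). Of the mitotic genes with a promoter window, 10 of 14 called genes held CHR and a CCAAT box, against 4 of 8 that were not called.

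**Figure D3:**
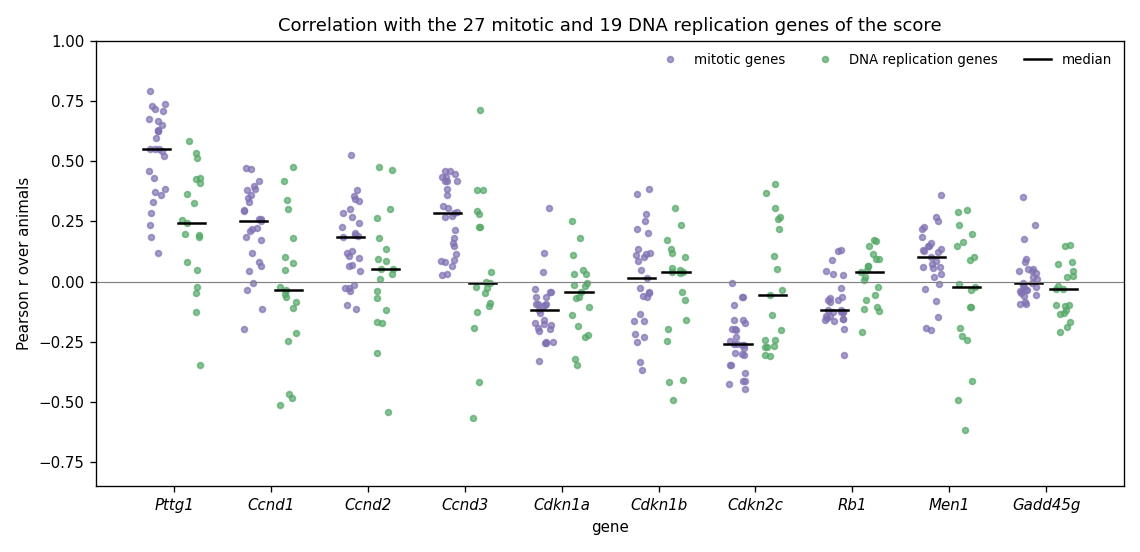
Pearson r over animals (y axis) of each of 27 mitotic genes (left column of points per gene) and 19 DNA replication genes (right column) with each member (x axis), with the median (bar). For Pttg1 all 27 mitotic genes lie above 0, with a median r of 0.55, while for Cdkn2c all 27 lie below 0, with a median of -0.26.

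The genes most like Pttg1 among 9406 genes passing the filter were Racgap1 (r = 0.79), Cdca3 (0.75), a mitotic entry factor, Ube2c (0.74) and Mki67 (0.73), over 43 animals. Least like it were Psme1, the alpha subunit of a proteasome activator (r = -0.71), and Scg5, a chaperone of the neuroendocrine prohormone convertase (r = -0.65). Racgap1 kept r = 0.74 within animals 1 to 22 and 0.73 within animals 23 to 42, and Psme1 -0.65 and -0.76.

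Among 22 genes of separase control, cohesin and the anaphase-promoting complex that passed the filter 1 was called with Pttg1, the complex subunit Anapc5 (slope 0.28 ± 0.08 SE, adjusted p = 0.0291), and 2 with the score, Anapc5 and the spindle checkpoint gene Mad2l1, while 6.19% of all probe sets were called with Pttg1 and 5.76% with the score. Without animal 43 Anapc5 was not called with Pttg1 (adjusted p = 0.256). Without animal 38 neither Anapc5 (adjusted p = 0.0938, limma) nor Mad2l1 (0.355) was called with the score. Of these 22 genes 0 were then called with Pttg1 (3 at an unadjusted p under 0.05). Cks2, a small subunit of mitotic CDK complexes, was called with both, with a slope of 1.77 ± 0.17 on the score (adjusted p = 1.9e-10) and of 0.88 ± 0.14 on Pttg1. Tfdp1, the dimer partner of E2F, was also called with both (0.48 ± 0.09 on the score), and Fos, an immediate early gene, as well (1.25 ± 0.22 on the score). Without animal 43 these 3 genes were still called with both, and without animal 38 Cks2 was still called with both, Tfdp1 with the score only and Fos with neither. E2f1 (0.78 ± 0.28, adjusted p = 0.0824), Cdk4 (-0.24 ± 0.12, adjusted p = 0.226) and Myc (-0.17 ± 0.25, adjusted p = 0.749) did not pass on the score, and Cdk6 and Esr1 did not pass the filter. By limma at an adjusted p, 0 of 7 cyclins and kinases of G1 and S, 0 of 3 other CDK inhibitors and 0 of 8 menin partners were called with the score, with 2, 1 and 2 of them at an unadjusted p under 0.05. Of all probe sets 5.76% were called.

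Some markers of other cells were also called with securin, beside 2.8% of all probe sets called negative and 3.38% called positive. Called negative with Pttg1 were 2 of 5 gonadotroph markers (Fshb and Cga), 1 of 2 thyrotroph markers (Tshb), 1 of 4 somatotroph markers (Gh1) and 1 of 6 folliculostellate markers (Aldh1a1), and 0 of 5 lactotroph markers were called, among them Prl, with a level of 15.61 ± 0.14 (SD, n = 43). With the score, where 2.88% of all probe sets were called negative, Fshb, Cga, Tshb and Aldh1a1 were called negative as well, and so were the lactotroph marker Agtr1b and the erythroid genes Hbb and Alas2. Called positive with Pttg1 were Mrc1, of 10 macrophage markers, and Col1a2, of 3 matrix markers. By limma 0 of 5 endothelial, 0 of 3 erythroid and 0 of 3 posterior lobe and neural markers were called with Pttg1. Without animal 43, and likewise without animal 38, these 7 calls with Pttg1 were lost, each at an unadjusted p under 0.05. On the score Aldh1a1 was not called without animal 43, and Cga alone of these markers was called without animal 38. The part of cell composition in the relation of Pttg1 to the mitotic genes was not tested.

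Members were then fitted on each other, which gave 45 pairs, with the member named first as the predictor. Past the threshold in the fit over all probe sets were 6, each with a positive slope, and 11 had an unadjusted p under 0.05. Of all probe sets, with the same predictors, 6.19% with Pttg1, 17.5% with Ccnd1, 21.4% with Ccnd2, 27.9% with Ccnd3 and 13% with Cdkn1b were called. The called pairs were Ccnd1 with Men1 (r = 0.62, rho = 0.57), Ccnd2 with Ccnd3 (r = 0.58, rho = 0.54), Ccnd1 with Ccnd3 (r = 0.55, rho = 0.35), Cdkn1b with Men1 (r = 0.48, rho = 0.14), Pttg1 with Ccnd3 (r = 0.44, rho = 0.32) and Ccnd3 with Men1 (r = 0.43, rho = 0.39). The last was fitted over 42 animals, since animal 43 formed a cluster of its own for Ccnd3 and Men1 and was left out where they were predictors. The others were fitted over 43 animals. Permutation p of r lay between 2e-05, for Ccnd1 with Men1, and 0.00798, for Cdkn1b with Men1 (two-sided, 100000 permutations). Permutation p of rho lay between 5e-05 and 0.372 for the same pairs, and was 0.0359 for Pttg1 with Ccnd3.

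Several of these pairs rested on animal 43. Without it, with the member named first as the predictor, 1 of 45 pairs was called, Ccnd3 with Men1 (adjusted p = 0.022, limma). With either member as the predictor 3 pairs were called without it, against 7 with it, and Ccnd1 was then called with Men1 (adjusted p = 0.0121, n = 42) and with Ccnd3 (adjusted p = 0.0346, n = 42) as predictors. Without animal 43 r was 0.48 for Ccnd1 with Men1, 0.38 for Ccnd1 with Ccnd3, 0.35 for Ccnd2 with Ccnd3, 0.27 for Pttg1 with Ccnd3 and 0.08 for Cdkn1b with Men1. With a smooth trend over animal numbers as a covariate 0 of 45 were called (4 at an unadjusted p under 0.05), with a step between animals 22 and 23 the count was 4, and with the actin and GAPDH ratios as covariates 2. With these ratios and either member as the predictor, Ccnd1 with Ccnd3, Ccnd3 with Rb1 and Pttg1 with Ccnd3 were called. No pair with Men1 was called with them. Ccnd3 with Men1 had r = 0.35 within animals 1 to 22 and 0.74 within animals 23 to 42, Ccnd1 with Men1 had 0.60 and 0.25, and Ccnd2 with Ccnd3 had -0.09 and 0.11. With probe sets of a gene averaged Ccnd3 and Men1 had r = 0.13. With a D cyclin as the predictor 0 of 9 pairs with a CDK inhibitor passed by limma, and r lay between -0.34 (Ccnd3 with Cdkn2c, n = 42, unadjusted permutation p = 0.0283) and 0.27 (Ccnd2 with Cdkn1b, n = 43). With the roles turned round, Cdkn1b with Ccnd3 passed over 43 animals (r = 0.43, adjusted p = 0.03), while r was -0.05 without animal 43.

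**Figure D4:**
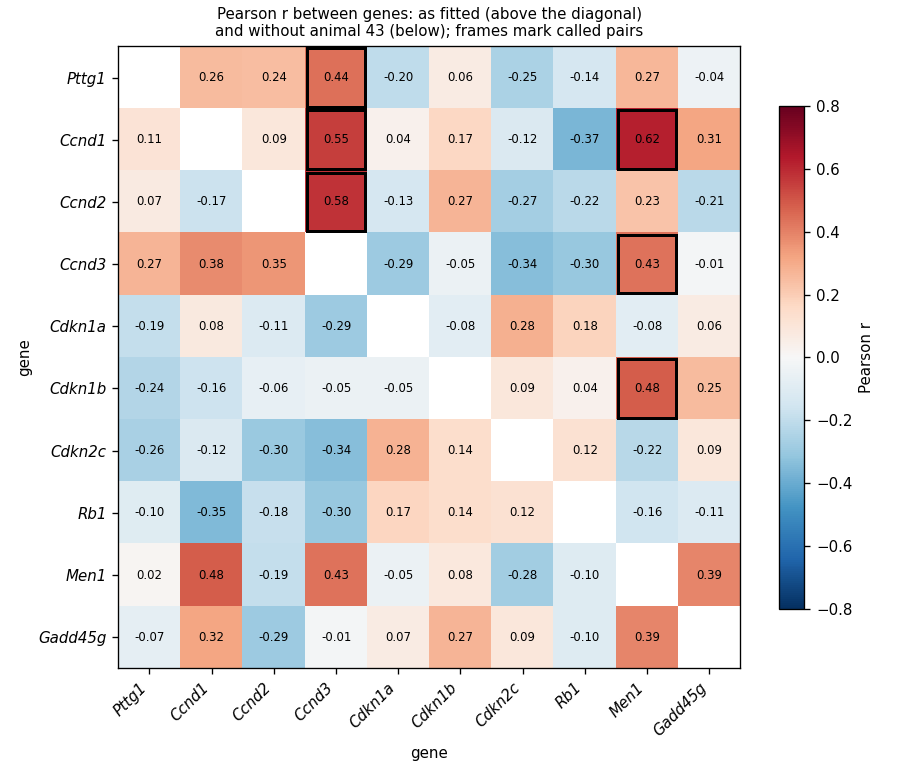
Pearson r of each pair of genes as fitted (above the diagonal, 43 animals, or 42 where Ccnd3 or Men1 was the predictor) and without animal 43 (below the diagonal), with colour from -0.8 (blue) to 0.8 (red) and frames around the 6 called pairs. The framed values of 0.43 to 0.62 have counterparts of 0.08 to 0.48 below the diagonal.

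As predictors the D cyclins were related to many genes. With Ccnd1 17.5% of probe sets were called, with Ccnd2 21.4% and with Ccnd3 27.9%, against 13% with Cdkn1b, 12% with Men1, 6.09% with Cdkn2c and 1.15% with Cdkn1a. With Rb1 and with Gadd45g 0% were called by limma at an adjusted p, while 7.71% and 7.4% had an unadjusted p under 0.05. Without animal 43 the count with Ccnd1 was 166, against 2711 with it, and with Cdkn1b it was 0 by limma (869 at an unadjusted p under 0.05), against 2011. For Ccnd2 it was 1255, against 3326. The counts with Ccnd3, 4323, and with Men1, 1865, were already made without that animal, unlike the other shares above. With the trend over animal numbers as a covariate the count with Ccnd3 was 1259.

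The genes most like Ccnd1 were Slc35c1, a GDP-fucose transporter (r = 0.74), the translation factor gene Eif2b1 (0.72), Hdlbp (0.71) and Abhd16a (0.71), and the lowest were Sccpdh (-0.71) and Eef1akmt1 (-0.69). Without animal 43 these values were, in the same order, 0.68, 0.65, 0.62, 0.63, -0.62 and -0.60. Within animals 23 to 42 they were 0.58, 0.43, 0.52, 0.40, -0.34 and -0.40. For Ccnd2 they were Fitm2, a protein of lipid droplet formation (r = 0.85), the splicing factor Srrm2 (0.78), Zfp91 (0.75) and the taurine transporter Slc6a6 (0.74), and the lowest were Hif1a (-0.76) and Ssbp1 (-0.75). Fitm2 kept r = 0.76 within animals 1 to 22 and 0.67 within animals 23 to 42. Without animal 43 r with Ccnd2 was 0.80 for Fitm2, 0.70 for Srrm2, 0.67 for Zfp91, -0.70 for Hif1a and -0.64 for Ssbp1. Slc6a6 was then 19th, with 0.63, and it had 0.33 within animals 23 to 42. For Ccnd3, over 42 animals, they were Septin9 (r = 0.83), the phosphodiesterase Pde10a (0.83), spermidine synthase Srm (0.83) and Cpz (0.82), and the lowest were Tceal1 (-0.85) and Cd48 (-0.82). Within the same ranges of animal numbers Srm had 0.86 and 0.60 and Tceal1 -0.72 and -0.79.

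The most similar genes of Men1, over 42 animals, were the splicing genes Hnrnpl (r = 0.76) and Snrnp70 (0.75), the proteasome gene Psmd1 (0.75) and Anxa6 (0.72), and the lowest were Uqcrc2 (-0.77), a subunit of respiratory complex III, and Zfp655 (-0.70). Hnrnpl had r = 0.78 within animals 1 to 22 and 0.74 within animals 23 to 42. For Cdkn1b Herpud1, induced by stress of the endoplasmic reticulum, was most alike (r = 0.73, and 0.52 without animal 43), followed by Hsf1 (0.70 and 0.42), Lsm4 (0.69 and 0.51) and Pttg1ip, which binds securin (0.69 and 0.38). Epm2aip1 (-0.71) and Bccip (-0.70) were lowest. For Cdkn1a they were Capn8 (0.69), Stmn4 (0.67), Cyb5a (0.66) and C11h21orf91 (0.65), and Ppic (-0.67) and Slc8a1 (-0.62) were lowest. For Cdkn2c they were Tmem14a (0.74), Trim35 (0.71), Hint2 (0.69) and Mbnl1 (0.68), and Tagln (-0.67) and Mtdh (-0.66) were lowest. Within animals 23 to 42 Hint2 had r = 0.18 with Cdkn2c and Tmem14a 0.32.

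For Rb1 the most similar gene was Ppm1d, a phosphatase of the p53 pathway (r = 0.55, adjusted p = 0.571), followed by Prlr, Hist2h2be and Eps15, with Armc6 (-0.56) and Mpnd (-0.53) lowest. For Gadd45g it was Lrg1 (r = 0.59, adjusted p = 0.455), followed by Ralb, Zup1 and Spats2, with Gabbr1 (-0.58) and Pet100 (-0.55) lowest. None of these passed the threshold.

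Of the score genes, 9 of 27 mitotic genes were called positive with Ccnd3 (13.7% of all probe sets were called positive with it), led by Kif20a (slope 0.90 ± 0.27 SE, adjusted p = 0.00862, limma) and Cenpf, and the count was 4 without animal 38 and 0 with the trend as a covariate (4 unadjusted) or with the step (3 unadjusted). DNA replication genes were called with Ccnd3 in both directions (limma, n = 42). Mcm6 (slope 0.93, adjusted p = 5.42e-06) and Fen1 (0.47, adjusted p = 0.0477) were positive, and Rfc4 (-0.61, adjusted p = 0.0216) was negative, as was Pcna. The replication clamp gene Pcna was called negative with Ccnd1, Ccnd2, Ccnd3 and Cdkn1b. Without animal 43 the call with Ccnd3 alone remained (r = -0.57, n = 42), while r was -0.30 with Ccnd1, -0.28 with Ccnd2 and 0.14 with Cdkn1b. With Cdkn2c Mki67 was the 1 mitotic gene called, negative (-1.23 ± 0.39, adjusted p = 0.0481; 5 mitotic genes were called without animal 43), and all 27 mitotic genes had a negative r with it. Within animals 1 to 22 and within animals 23 to 42, 6 of the 27 had a positive r. Animal 38 was the highest for Cdkn2c and the lowest on the score. The r of Cdkn2c with the score was -0.345 over 43 animals and -0.232 without animal 38. Among other regulators, Cdk4, the D cyclin kinase, was called positive with Cdkn1b (0.38 ± 0.13, adjusted p = 0.0385) and with no D cyclin, and Myc was called positive with Ccnd1 (0.40 ± 0.10, adjusted p = 0.00767) and Men1 (0.84 ± 0.21, adjusted p = 0.00575). Cdkn1c, a further CIP/KIP inhibitor, was positive with Ccnd1 and Ccnd3, and Cdkn2a with Ccnd2. Without animal 43 the calls of Cdk4 with Cdkn1b (adjusted p = 0.875) and of Myc (0.112) and Cdkn1c (0.234) with Ccnd1 were lost, and those of Myc with Men1, Cdkn1c with Ccnd3 and Cdkn2a with Ccnd2 were not.

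Gonadotroph markers were called with several members in opposite directions, and so were markers of other cells. Called negative were 4 of 5 with Ccnd2 (9.45% of all probe sets were called negative with it) and 4 of 5 with Ccnd3 (14.2%): Fshb, Cga, Gnrhr and Nr5a1, which encode hormone subunits, the GnRH receptor and a lineage factor. Called positive were 3 of 5 with Cdkn2c (3.31%), namely Fshb, Cga and Nr5a1, and 2 of 5 with Cdkn1a (0.825%), Fshb and Cga. With the same sign as these, Tshb was called with all 4 members. Without animal 43 the somatotroph marker Gh1 was also called with all 4, with these signs (limma, n = 42). Its slope was -0.946 with Ccnd2 (adjusted p = 0.00278), -1.315 with Ccnd3 (0.000207), 0.674 with Cdkn1a (0.0375) and 1.375 with Cdkn2c (0.0206). Dlk1 was then called with Ccnd2, Ccnd3 and Cdkn1a, Ghrhr with Cdkn2c alone and Sstr2 with none. The endothelial marker Tek was called with Ccnd2, Ccnd3 and Cdkn2c. Markers of further cells were called too (limma, without animal 43, n = 42). With both Ccnd2 and Ccnd3 Nefl (neural), Dcn (matrix), Csf1r (macrophage) and Kdr (endothelial) were called negative and Mrc1 (macrophage) positive. The slope of Nefl was -1.57 with Ccnd2 (adjusted p = 0.00123) and -2.17 with Ccnd3 (6.45e-05). Hbb and Alas2 (erythroid) were called negative with Ccnd3 and positive with Cdkn2c. With Ccnd2 4 of 6 folliculostellate markers were called negative, led by Anxa1 and Aldh1a1, and with Ccnd3 3 of 6. Of the listed lactotroph markers Drd2, the dopamine receptor, was called positive and the lineage factor Pou1f1 negative with both Ccnd2 and Ccnd3. Agtr1b was called negative with Ccnd3 (slope -1.28, adjusted p = 0.0341, n = 42, limma). Prl was called with Cdkn1b alone, negative (-0.50 ± 0.13, adjusted p = 0.00972). Without animal 43 the call of Prl with Cdkn1b was lost (slope -0.23, adjusted p = 0.915), as was that of Pou1f1 with Ccnd2 (adjusted p = 0.212), and gonadotroph markers called were 3 with Ccnd2 and 3 with Cdkn1a.

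The gonadotroph counts changed when animal numbers were taken into account. Fshb had levels between 6.58 and 7.84 in animals 1 to 22 and between 7.24 and 9.01 in animals 23 to 42, with animals 40 and 42 inside the range of animals 1 to 22. The means of the members differed between animals 1 to 22 and animals 23 to 42 as well. In this order they were 12.68 and 12.43 for Ccnd2 and 11.92 and 11.68 for Ccnd3. For Cdkn1a they were 8.94 and 9.25, and for Cdkn2c 10.27 and 10.42. Since the levels differed between these ranges of numbers, no pooled correlation with Fshb is given. Within animals 1 to 22 r with Fshb was -0.08 for Ccnd2, -0.45 for Ccnd3, 0.30 for Cdkn1a and 0.07 for Cdkn2c. Within animals 23 to 42 it was 0.40, 0.01, 0.25 and 0.31. With the trend over animal numbers as a covariate the count of gonadotroph markers called was 0 with Ccnd2 (0 unadjusted), 1 with Ccnd3, 0 with Cdkn2c (0 unadjusted) and 0 with Cdkn1a (4 unadjusted), and with the step it was 1 with Ccnd2 and 0 with Ccnd3, Cdkn2c and Cdkn1a (0 unadjusted each). The counts with Ccnd2, Ccnd3, Cdkn2c and Cdkn1a were 0 within either range of animal numbers (limma), with 2, 1, 2 and 0 at an unadjusted p under 0.05 within animals 1 to 22 and 1, 0, 1 and 1 within animals 23 to 42. The part of cell composition in these counts was not tested. The trend and the step do not tell weight, processing and animal number apart.

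**Figure D5:**
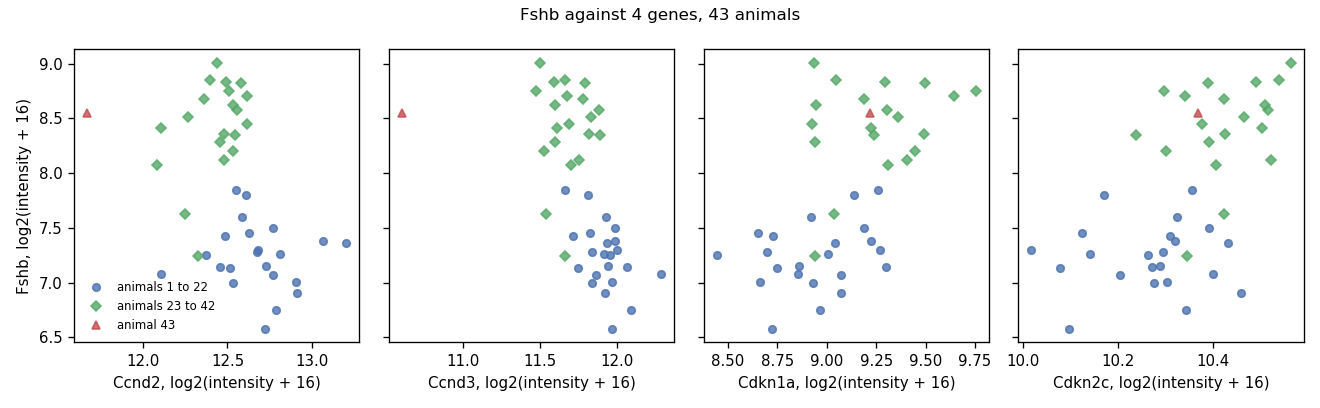
Level of Fshb, log2(intensity + 16) (y axis), against the level of Ccnd2, Ccnd3, Cdkn1a or Cdkn2c on the same scale (x axes) in 43 animals, marked by animal number. Most animals numbered 23 to 42 (diamonds) lie above those numbered 1 to 22 (circles) on the y axis, and within each range r with Ccnd3 was -0.45 and 0.01.

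In an F2 cross neighbouring genes are inherited together, so the position of the most similar genes was examined. Of the 25 genes with the highest absolute r to each member, 0 lay among the 20 nearest tested genes on its chromosome, for all 10 members. On the member's own chromosome lay 6 of 25 for Men1 (chromosome 1, with 12.4% of genes tested), 3 for Ccnd2 (chromosome 4, 5.63%) and between 0 and 2 for the others. Without animal 43 it was 5 for Ccnd2, 3 for Cdkn2c, 6 for Men1 and between 0 and 2 for the others. The neighbour most alike was Bysl for Ccnd3, a ribosome assembly factor (r = 0.71 over 42 animals).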

How the data were processed

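Values were 1 intensity per probe set and array, as deposited by the authors, who had scaled each array to a common level (mean after trimming 2% at either end, 500.17 to 500.22). The summarising program was not given in the sources used here. Probe sets were named from the platform annotation, with symbols updated through gene identifiers (99.7% found in RefSeq), and a gene was represented by its brightest singly named probe set. After adding 16 and taking log2, 15521 probe sets passed the filter. All were regressed on the score or on a member (limma 3.58.1 in R 4.3.3, lmFit and eBayes with trend, threshold 0.05). Animals forming a cluster of under 6 in the predictor (mclust 6.1.1) were left out. The members and the gene lists were chosen with earlier results of these data known. Named genes are members, the 4 most and 2 least similar genes of each, list genes past the threshold, up to 5 per list, and 6 regulators of direct role. Fits were tested on simulated data. The replicates are separate animals, and their number limits the precision. Protein sequences were not analysed here.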

Additional observations from a re-analysis of the deposited data

How the results depend on the processing

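The relation of Pttg1 to the score passed the threshold in 23 of 24 alternatives. Within animals 1 to 22 it did not, with the lowest r, 0.71, and the highest, 0.86, was that within animals 23 to 42. Counts below are, in order, pairs of members called (main 6), members called on the score (main 1) and probe sets called on the score (main 891), where they moved by over 1.5 times. Without animal 38 the last was 142, and without animal 43 the first was 1. Without both they were 1 and 145. With the ratios of array quality as covariates 2 pairs were called, and with differences between consecutive animals 2 pairs and 430 probe sets. With the trend 0 pairs and 136 probe sets were called, and with the step 132 probe sets. Within animals 1 to 22 the counts were 0 pairs, 0 members (1 at an unadjusted p under 0.05) and 7 probe sets, within animals 23 to 43 57 probe sets, and within animals 23 to 42 0 pairs and 127 probe sets. Ranks gave 413 probe sets, DNA replication genes alone 63, and a filter at the 75th percentile, which Pttg1 does not pass, 0 members and 207. Members called were 2 with array medians subtracted and 2 with score genes unfiltered, Ccnd3 being added in both. Added after seeing the data, the step without animal 43 gave 1 pair and 224 probe sets, and the trend without it 0 pairs and 178 probe sets. Signs turned as follows. For Ccnd2 with Fshb r was 0.087 with the step, 0.22 within animals 23 to 43, 0.40 within animals 23 to 42, 0.035 for consecutive differences, and without animal 43 0.13 with the step and 0.10 with the trend. For Ccnd3 with Fshb it was 0.010 within animals 23 to 43 and within animals 23 to 42. For Ccnd2 with Ccnd3 it was -0.086 within animals 1 to 22, and without animal 43 -0.017 with the step and -0.081 with the trend. For Cdkn1b with Men1 it was -0.12 within animals 1 to 22 and -0.017 with the trend without animal 43, and for Pttg1 with Ccnd3 -0.070 within animals 23 to 42. Of the other values with a test, 77 lost and 13 gained the threshold and 1422 did neither. The cause was not tested, beyond the fewer animals or probe sets of some settings. No paired analysis was possible because the animals form 1 group.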
